A study of Equus caballus with 20 samples.

Results

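The genes described here serve protein folding in the endoplasmic reticulum (ER) and the stress response of that organelle. They comprise ER chaperones, folding enzymes, stress sensors, stress transcription factors, degradation factors, translocon subunits and an ER exit coat subunit. Of 35 gene symbols named for this set, 31 matched a feature name exactly, among 26740 features in all. HSP90B1, PDIA4, CRELD2 and ERO1B were not found under those symbols and are not analysed as members. ERO1B is listed under its older symbol ERO1LB and is counted with the other pathway genes below. All 31 matched genes passed the filter on low values, which kept 14692 features with more than 1 CPM (reads scaled to the library total) in at least 5 libraries.

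Proteins that a cell secretes or places in its membranes enter the ER through the translocon, fold there with chaperones, and leave in coated vesicles. When unfolded protein builds up, the sensors encoded by ERN1 (IRE1), EIF2AK3 (PERK) and ATF6 start the unfolded protein response. It raises chaperones and degradation factors through the transcription factors XBP1, ATF4 and ATF6 itself. The oviduct epithelium holds secretory cells, which release proteins into the tube where the early embryo lies, and multiciliated cells, which move fluid and gametes.

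RNA was sequenced from epithelium of Warmblood mares, sampled 4 days after ovulation where the ampulla and the isthmus of the oviduct join. The 20 libraries form 4 groups of 5 biological replicates. These are the oviduct on the ovulation side of pregnant mares (pregnant ipsilateral, PI), the opposite oviduct of pregnant mares (pregnant contralateral, PC), and the same sides of cyclic mares, which are not pregnant (CI and CC). The horses carry no genetic change and received no agent that the labels name, and the labels do not say whether same-numbered libraries of a status came from 1 mare.

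Library totals ran from 2795168 reads (PI1) to 10126484 (CI2), with group medians of 4936111 in PI, 5781668 in PC, 6263152 in CI and 4763477 in CC. Under 4000000 reads were PI1, CI3 and CC4, and a single feature took over 10% of the reads in PI1, PI4 and CI3. The epithelial markers EPCAM (1115 to 2413 normalized counts over the 20 libraries) and CDH1 (1509 to 4576) and the ciliary regulator FOXJ1 (2774 to 6344) were well above the counting floor in every library. OVGP1, the oviduct's secreted glycoprotein and its defining secretory marker, was near the floor at 0 to 15.4 normalized counts, as was MSLN. The other markers listed for secretory cells were detected in every library, among them PAX8 at 1410.2 to 2491 and the secreted chaperone CLU at 6319 to 28750 normalized counts. In such tissue samples, fewer cells of a type and less RNA per cell cannot be told apart. Levels are given below in the deposited normalized counts, which are not divided by gene length, so a level is compared only with the same gene in other libraries.

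HSPA5 encodes BiP, the main ER chaperone and a standard read-out of ER stress. It had 1094, 1726, 1336, 1396 and 1249.7 normalized counts in PI1 to PI5. Its PC values in the same order of replicates were 1128, 1913, 1428, 2496 and 2034. In cyclic mares it had 1876, 1887, 830.2, 1919 and 1503 in CI1 to CI5, and 2343, 2643, 1908, 995 and 1569 in CC1 to CC5. All 4 groups overlapped, and the lowest values were in CI3, CC4 and PI1, the libraries with the fewest reads. Group means were 1360.2 ± 234 in PI, 1799.9 ± 534 in PC, 1603 ± 464 in CI and 1892 ± 647 in CC (SD, n = 5 each).

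The other chaperones and co-chaperones also overlapped between groups. HYOU1, a large chaperone that acts with BiP as its nucleotide exchange factor, averaged 463 ± 109.6 in PI, 592 ± 145 in PC, 518 ± 99.8 in CI and 616 ± 249 in CC. MANF, a secreted factor released on ER stress, averaged 98.7 ± 30.1 in PI, 135 ± 44.2 in PC, 99.9 ± 35.5 in CI and 107 ± 29.2 in CC. SDF2L1, an ER stress-induced partner of BiP's co-chaperones, was thinly covered, with 3 reads in CC4, the counting floor, and at most 85 in any library. Its values in CC, 40.8, 43.9, 14.4, 5.01 and 24.1 normalized counts, spanned nearly the whole range of the 20 libraries. The BiP co-chaperones DNAJB9, DNAJB11 and DNAJC3 had group means of 221 to 273, 128 to 161 and 384 to 474 normalized counts.

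Among folding enzymes, P4HB, a protein disulfide isomerase, averaged 3001 ± 732 in PI, 3669.8 ± 982 in PC, 3855 ± 965 in CI and 4062 ± 1424 in CC. PDIA6, another disulfide isomerase, averaged 703 ± 139.6 in PI, 882 ± 198 in PC, 822 ± 134 in CI and 896 ± 222 in CC. CANX, the membrane lectin calnexin that holds unfinished glycoproteins, had group means of 3369 to 4504, and UGGT1, the glucosyltransferase that returns misfolded glycoproteins to it, of 688 to 798. For each of these genes PI had the lowest mean of the 4 groups, with ranges that overlapped those of the others.

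ERN1, the IRE1 sensor, had 321, 359, 351, 372 and 383 normalized counts in replicates 1 to 5 of PI, against 581, 469.7, 470.1, 479 and 344 in those of CI. On the contralateral side it had 311, 403, 453, 412 and 477 in replicates 1 to 5 of PC, against 699.6, 584, 484, 434 and 446 in those of CC. All PI libraries lay below CI1 to CI4, and CI5 lay within the PI range. In PC, 3 libraries lay below every CC library, and PC3 and PC5 lay within the CC range. In the RefSeq annotation of the assembly TB-T2T, ERN1 overlaps an uncharacterized locus, and whether the counting could separate them is not known.

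EIF2AK3, the PERK sensor, averaged 391 ± 79.8 in PI, 426 ± 79.9 in PC, 449.9 ± 85.6 in CI and 465 ± 94.8 in CC. ATF6, the sensor that is itself cleaved into a transcription factor, had 548, 526, 549.9, 540.1 and 569 normalized counts in PI1 to PI5, and 577, 591, 598, 684 and 584 in PC1 to PC5. All 5 PI libraries lay below all 5 PC libraries, and no other member separated any pair of compared groups. Over all features, 0.0885% had PI entirely below PC. Groups that did not overlap, in either direction, were found in 0.592% of features for PI and CI, 0.585% for PC and CC, 0.136% for PI and PC, and 0.0681% for CI and CC. In cyclic mares the sides overlapped, with 492, 568, 573, 602 and 529 in CI1 to CI5 and 639, 508, 602, 571 and 561 in CC1 to CC5.

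XBP1, the transcription factor activated when IRE1 splices its mRNA, had 865, 1463, 2017, 1958 and 1342 normalized counts in replicates 1 to 5 of PI, against 2418, 2888, 1398, 2891 and 1848 in those of CI. Its contralateral values were 1002, 1813, 2409, 2365 and 1831 in replicates 1 to 5 of PC, against 1819.6, 4328, 2321, 1722 and 1521 in those of CC. The groups overlapped, and CC2 stood far above the rest. Counts per gene do not separate spliced from unspliced XBP1, so they do not measure IRE1 activity.

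ATF4, the transcription factor translated when PERK is active, had 508, 599, 316, 508 and 412 normalized counts in PI1 to PI5, against 501, 598, 314, 483 and 390.2 in PC1 to PC5. The sides of a number were nearly equal while the numbers differed. It had 581, 519.8, 495, 399 and 403 in CI1 to CI5, and 742, 733, 397, 230.5 and 367 in CC1 to CC5. The spread was widest in CC, with an SD of 231, against 108 in PI, 109 in PC and 78.3 in CI. DDIT3, which encodes CHOP, a pro-apoptotic factor of prolonged ER stress, averaged 62.3 ± 15.8 in PI, 60.0 ± 6.99 in PC, 63.9 ± 15.4 in CI and 65.1 ± 25.0 in CC. It rested on 20 to 142 reads a library, and its span overlaps that of MARS1 in the RefSeq annotation.

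**Figure D1:**
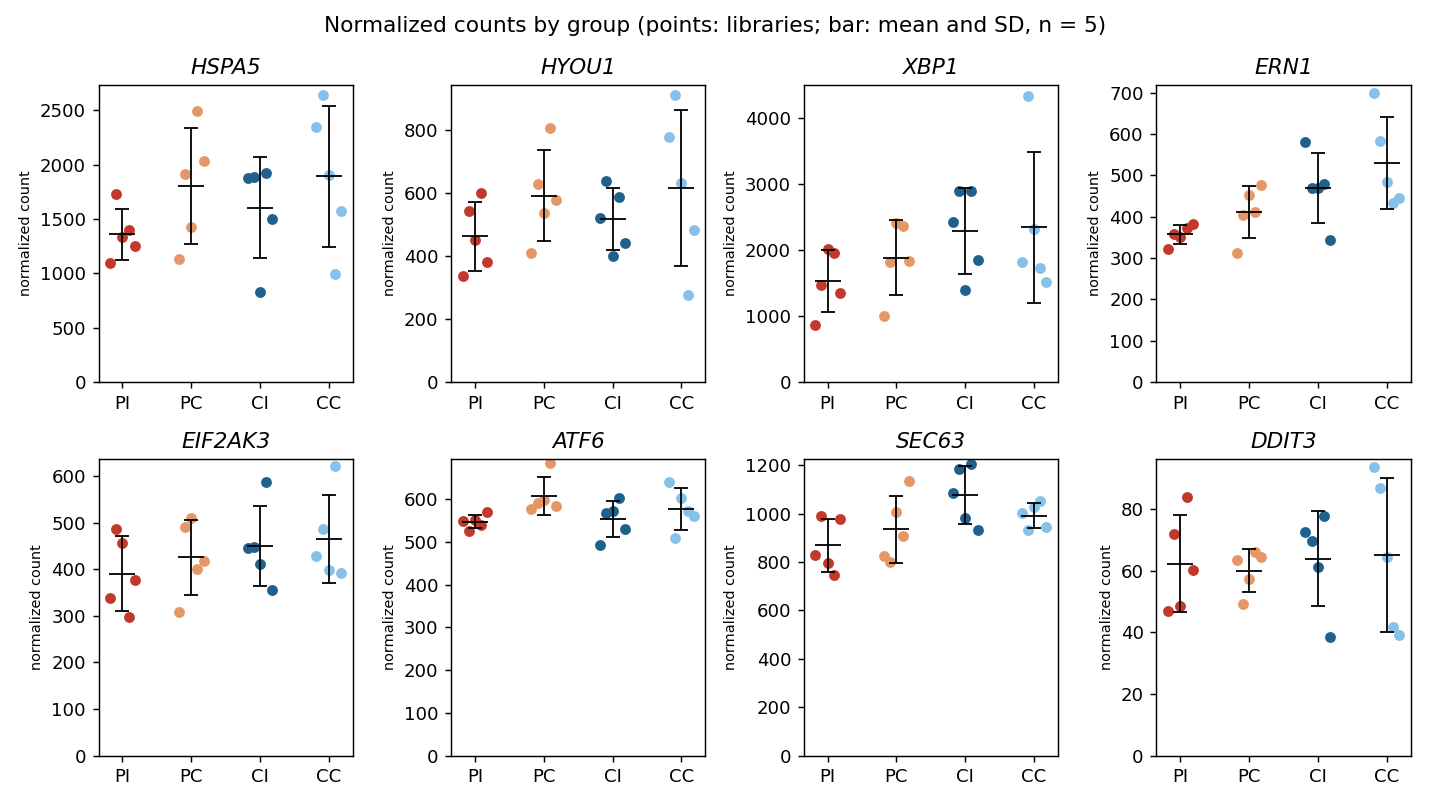
Normalized counts of 8 ER folding and stress genes in each library (points) with group means and SD, by group (PI, PC, CI and CC, 5 libraries each). The groups overlap in most comparisons, and ATF6 in PI (526 to 569) lies below PC (577 to 684).

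Of the ER-associated degradation genes, EDEM2, a mannosidase-like lectin that marks misfolded glycoproteins, varied most. It had 138, 306, 278, 272 and 159 normalized counts in PI1 to PI5, and 152, 425, 299.8, 520.2 and 263 in PC1 to PC5. It had 285, 398, 109.9, 311 and 229 in CI1 to CI5, and 343, 477, 325, 185 and 210.3 in CC1 to CC5. The sides and statuses overlapped, and the extremes were CI3 and PC4. DERL2, a derlin of the retrotranslocation channel, averaged 172 ± 47.4 in PI, 219.9 ± 44.1 in PC, 214 ± 47.1 in CI and 214 ± 51.8 in CC. VCP, the ATPase that pulls substrates out of the ER membrane, averaged 2041 ± 449 in PI, 2519 ± 557 in PC, 2394 ± 515 in CI and 2487 ± 705 in CC. SEL1L and SYVN1, adaptor and ligase of the ubiquitin complex, with HERPUD1, EDEM1 and DERL1, complete this role. Their group means were 558 to 673 (SEL1L), 192 to 212 (SYVN1), 485 to 613 (HERPUD1), 196 to 248 (EDEM1) and 122 to 159 (DERL1), and their ranges overlapped between all groups.

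Of the translocation genes, SEC63, the translocon partner that recruits BiP, had 829, 992, 798, 746 and 979 normalized counts in replicates 1 to 5 of PI, against 1083, 1186, 983, 1204 and 931 in those of CI. All PI libraries but PI2 and PI5 lay below every CI library. SEC63 also overlaps another locus in the RefSeq annotation. Contralaterally it had 824, 800.3, 1009, 906 and 1135 in replicates 1 to 5 of PC, against 1001, 934, 1027, 1054 and 944 in those of CC, with PC spanning the CC range. SEC61A1, the channel subunit, averaged 757 ± 221 in PI, 929.8 ± 265 in PC, 998 ± 361 in CI and 1141 ± 366 in CC. The translocon-associated proteins SSR1 and SSR3 had means of 351 ± 103 and 766 ± 256 in PI, 453 ± 115 and 911 ± 241 in PC, 448 ± 129 and 1004 ± 324 in CI, and 514 ± 86.1 and 1099.8 ± 327 in CC. SEC61B, a small channel subunit, and SEC24D, a cargo subunit of the COPII exit coat, had group means of 236 to 269 and 533 to 592.

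Most members varied together across the 20 libraries. In each library the median member deviation from its gene's 20-library mean on the log2 scale ran from -0.56 in PI1 to 0.49 in CC2. Low libraries occurred in every group, at -0.56 (PI1), -0.46 (PC1), -0.50 (CI3) and -0.34 (CC4), and of these PC1 was not shallow (5781668 reads). The members together took 0.238% to 0.419% of the reads in PI, 0.274% to 0.545% in PC, 0.250% to 0.528% in CI and 0.347% to 0.626% in CC. Over the 465 pairs of members the median Pearson r across the 20 libraries was 0.62, with 293 pairs above 0.5 and 16 below 0. These values are a description, since the libraries share groups, an association with read number and possibly mares. No r was taken within a group. CANX and SSR3 were the closest pair (r = 0.97). HSPA5 had a median r of 0.79 with the other members, against 0.09 with all features. ATF6, ATF4 and SEC63 followed the rest least, with median r of 0.13, 0.30 and 0.34.

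**Figure D2:**
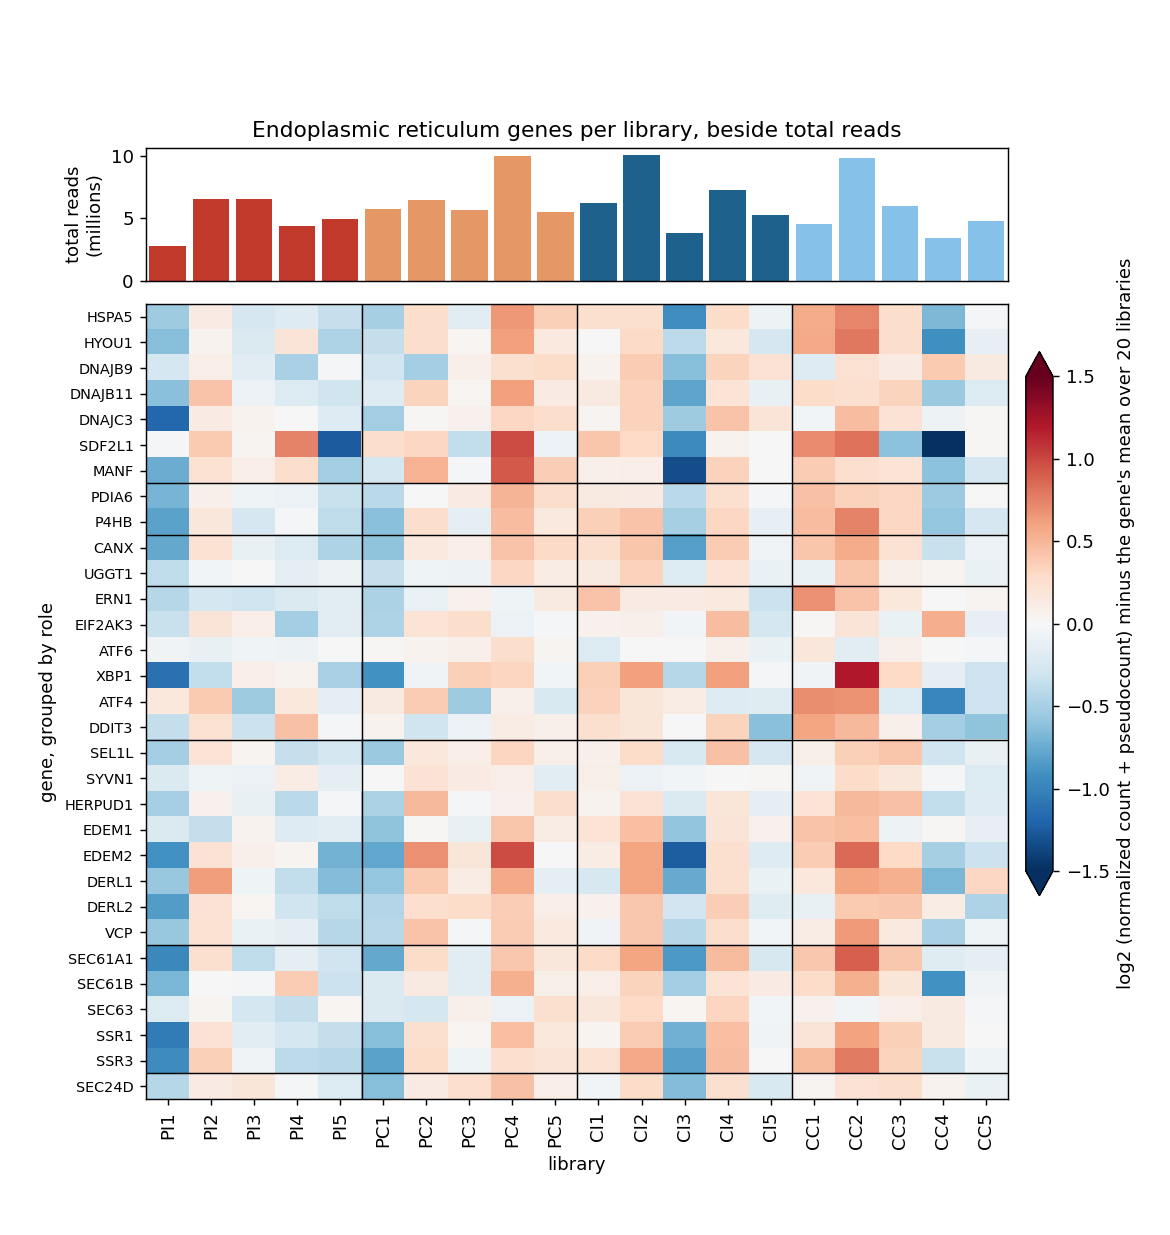
Deviation of each member (rows, by role) from its 20-library mean in log2 units, blue low and red high, in each library (columns, grouped as PI, PC, CI and CC), under bars of total reads. PI1, PC1, CI3 and CC4 are low for most members, and CC2 and PC4 are high.

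The spread of single genes ran from a coefficient of variation of 7.71% for ATF6 to 45.1% for SDF2L1 over the 20 libraries. Counting error alone would give 4.48% for ATF6 and 25.7% for SDF2L1. XBP1 varied by 38.5% and HSPA5 by 30.0%, where counting error would give 2.66% and 2.85%. SYVN1 (9.86%) and SEC63 (13.2%) were also steady.

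Member levels moved with the number of reads in a library, although the deposited values are scaled for it. In a limma fit of the 4 group means and log2 total reads, added after the values were seen, 23 of 31 members had a positive coefficient that passed an adjusted p of 0.05 over all features. Among all features 20.4% did so, and another 2330 features had a negative coefficient that passed. The median member coefficient was 0.59 log2 units per doubling of reads, against 0.08 over all features. EDEM2 had the highest, 1.01 ± 0.17 (SE), XBP1 the next at 0.81 ± 0.16, and HSPA5 had 0.69 ± 0.15 (limma adjusted p = 5.6e-04, 0.0010 and 0.0018). The 8 members that did not pass were ATF6 (-0.01 ± 0.08), SEC63 (0.05 ± 0.10), ERN1 (0.11 ± 0.12), SYVN1 (0.12 ± 0.09), EIF2AK3 (0.13 ± 0.14), DNAJB9 (0.28 ± 0.14), ATF4 (0.28 ± 0.20) and DDIT3 (0.34 ± 0.18). All 3 stress sensors were thus among the members without a coefficient that passed. Only 2 folding enzymes were matched, P4HB and PDIA6, and both passed. Without PI1, CI3 and CC4 neither did (limma adjusted p = 0.077 and 0.25).

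Fewer coefficients passed once the shallow libraries were left out. Without PI1, CI3 and CC4 all 31 coefficients were positive and 8 passed, in UGGT1, XBP1, EDEM2, DERL1, DERL2, VCP, SEC61A1 and SSR1, against 4.57% of features. The median member coefficient was then 0.43. What differs between shallow and deep libraries besides read number was not tested.

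**Figure D3:**
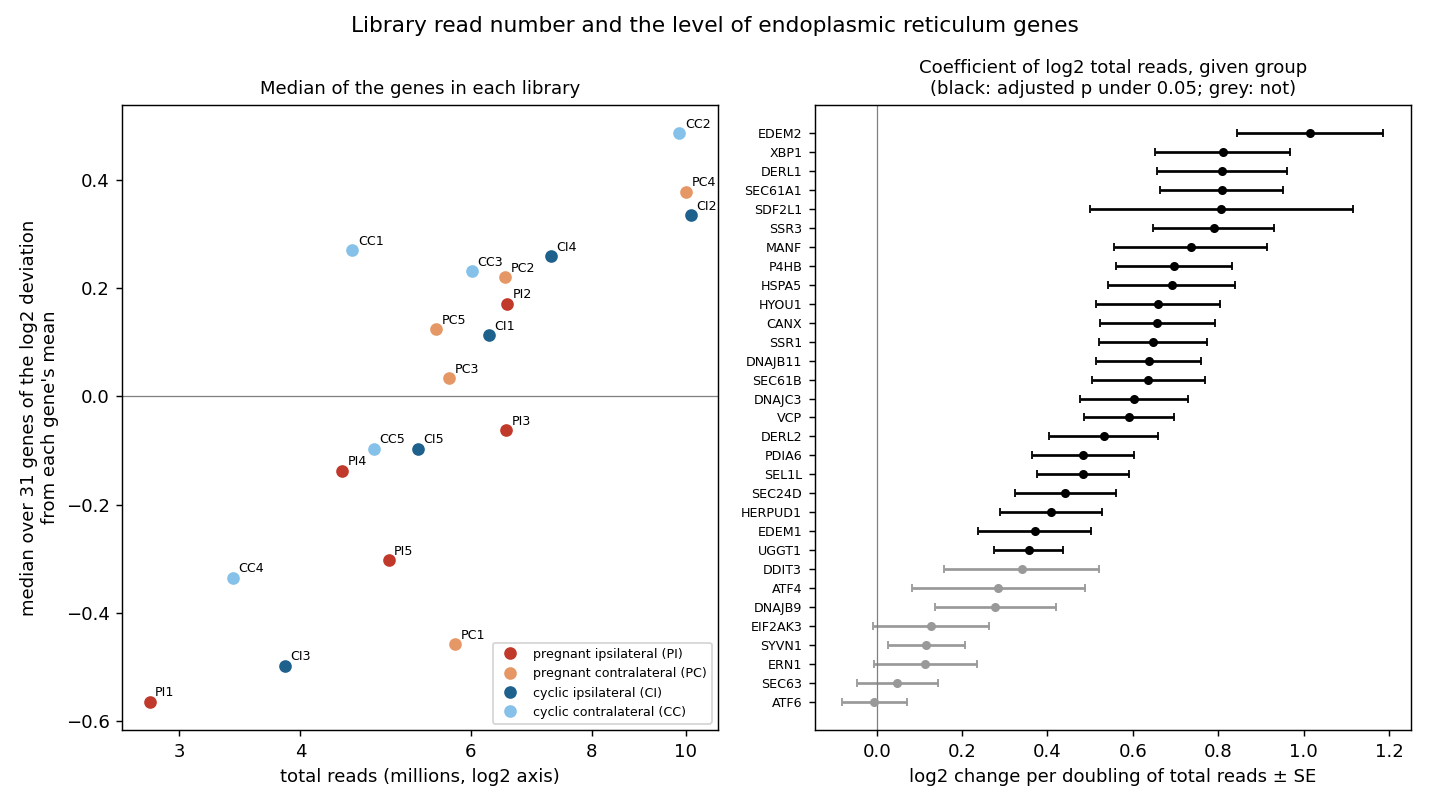
Left, the median log2 deviation of the 31 members in each library (points, coloured by group) against total reads on a log2 axis; right, each member's log2 change per doubling of reads with SE, black where it passed. PI1, with 2795168 reads, has the lowest median, and coefficients run from -0.01 for ATF6 to 1.01 for EDEM2.

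Pregnant and cyclic mares were first compared on the ovulation side, where the embryo travels. No member differed between PI and CI at an adjusted p of 0.05 by limma, edgeR or DESeq2, and 0% of all features were called by limma. At an unadjusted p under 0.05 by each of the 3 tools 2 members, ERN1 and SEC63, were lower in PI. By limma 3.50% of features reached that level. Without CI3, 10 members and 5.64% of features did so, and with library weights 5 members and 6.19% of features, none passing after adjustment. Without PI1, PI4 and CI3, in which 1 feature took over 10% of reads, 0 members and 1.57% of features did so. With the multiciliated marker level described below as a covariate, the counts were 0 members and 1.60% of features. In the model without covariates 28 of the 31 members were lower and 3 higher in PI, with a median log2 difference of -0.22. Of all features 51.9% were lower, with a median of -0.01. Without PI1 the member median was -0.14 and without CI3 it was -0.34. With log2 total reads as a covariate it was -0.05 and 20 members were lower; the median library had 4936111 reads in PI and 6263152 in CI.

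The lower values in PI covered most roles. All 5 translocon genes, all 8 degradation genes and all 6 sensors and transcription factors were lower in PI. So were the 4 folding enzymes and lectin-cycle genes and 5 of 7 chaperones, against 51.9% of all features. Most members varied together across libraries, so the roles are not separate results. ATF6, DDIT3 and ATF4, counted as lower, differed by only -0.01 ± 0.10, -0.03 ± 0.25 and -0.05 ± 0.27 log2 units (SE). SEC63 differed by -0.31 ± 0.12 log2 units (SE) and ERN1 by -0.37 ± 0.16 (limma adjusted p = 0.999 for both). XBP1 followed with -0.59 ± 0.30 and SSR3 with -0.38 ± 0.28. DERL2 differed by -0.33 ± 0.22 and SSR1 by -0.35 ± 0.24. With log2 total reads as a covariate ERN1 stood at -0.33 and XBP1 at -0.29.

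Of 15 markers of multiciliated cells 13 were kept. All 13 had higher means on the log2 scale in PI than CI and in PC than CC, by a median of 0.27 and 0.30 log2 units, and none passed by limma. Their mean log2 level ran from 11.5 to 11.8 in PI, 11.6 to 11.8 in PC, 11.1 to 11.7 in CI and 11.2 to 11.8 in CC. With that level as a covariate ERN1 differed by -0.13 between PI and CI and by -0.04 between PC and CC, and the member median was -0.06 between PI and CI and 0.19 between PC and CC. Of 13 stromal and smooth muscle markers 10 were lower in PI than CI, and of 12 leukocyte markers 9 were higher; in PC against CC the counts were 10 and 11. Their mean log2 levels overlapped, at 6.63 to 7.92 in PI and 7.34 to 8.05 in CI for stroma, and at 5.38 to 6.69 in PI and 5.16 to 6.90 in CI for leukocytes. With the stromal level as a covariate the member median between PI and CI was -0.13, and the part of leukocytes in the result was not tested.

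**Figure D4:**
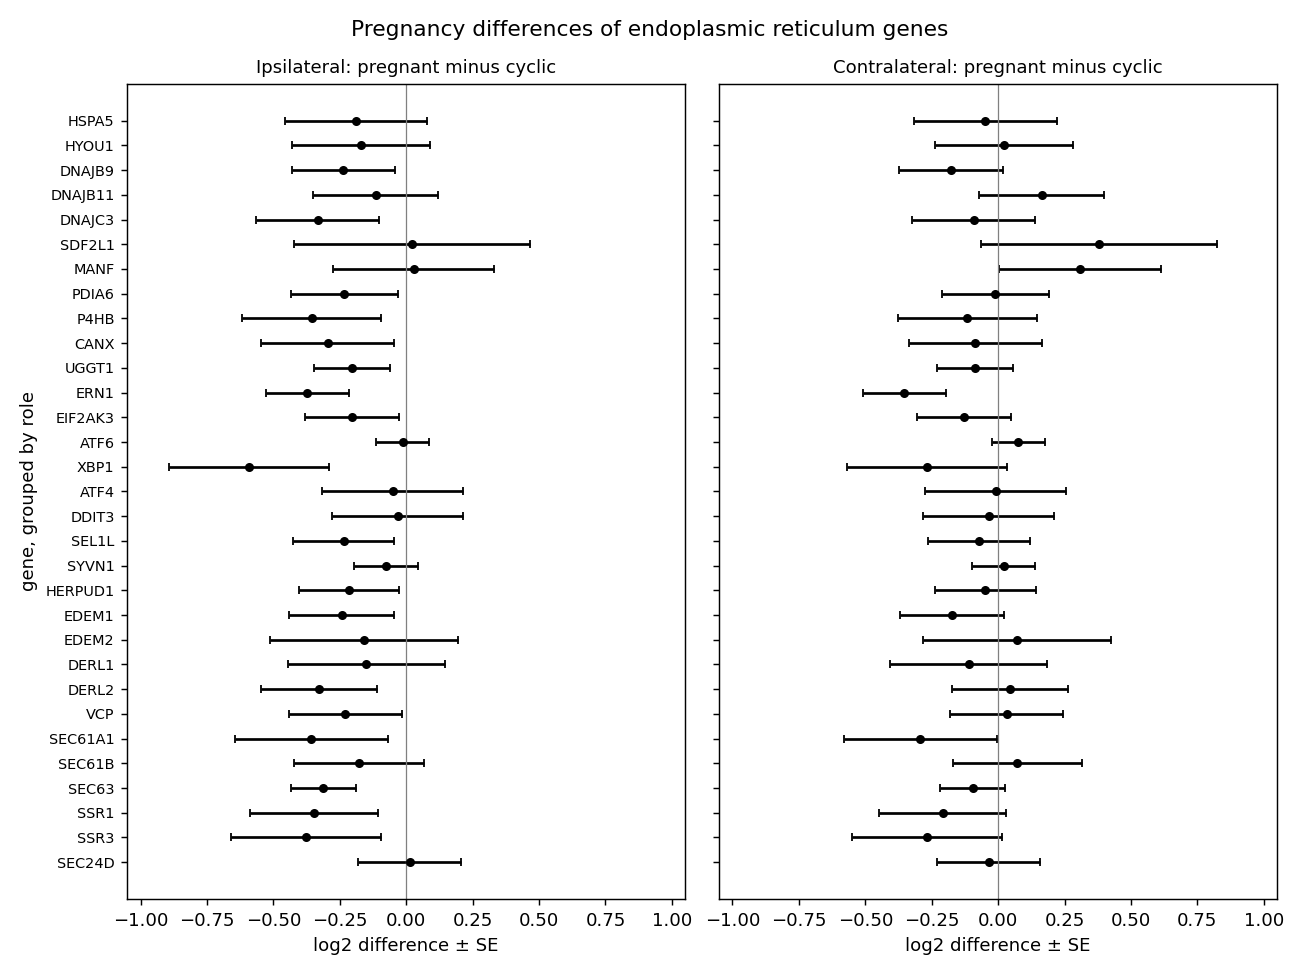
Log2 differences of the 31 members between pregnant and cyclic mares with SE, ipsilateral (PI minus CI) and contralateral (PC minus CC). ERN1 lies below 0 on both sides, at -0.37 and -0.35, and most other members lie below 0 ipsilaterally and around 0 contralaterally.

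On the contralateral side no member differed between PC and CC by limma, edgeR or DESeq2 at an adjusted p of 0.05, with 0% of features called by limma. ERN1 alone had an unadjusted p under 0.05 by each tool, a level reached by 4.55% of features by limma. It differed by -0.35 ± 0.16 log2 units between PC and CC (limma adjusted p = 1.000), and without CC1, its highest library, by -0.25. Of the members 21 were lower and 10 higher, with a median of -0.05, whereas 48.2% of all features were lower, with a median of 0.01. Without CC4 the member median was -0.17, without PC1 it was 0.05, and with log2 total reads as a covariate it was -0.17. In that last fit 28 members were lower in PC, and 5 members and 7.49% of features had an unadjusted p under 0.05. In the model without covariates the thinly covered SDF2L1 had the largest difference of the members, 0.38 ± 0.44. There MANF differed by 0.31 ± 0.30, SEC61A1 by -0.29 ± 0.29, SSR3 by -0.27 ± 0.28 and DNAJB9 by -0.18 ± 0.20.

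The sides of pregnant mares were compared next. No member differed between PI and PC by limma, edgeR or DESeq2 at an adjusted p of 0.05, and none had an unadjusted p under 0.05, a level that 0.762% of features reached by limma (0% at the adjusted level). Of the members 29 were lower in PI and 2 higher, with a median of -0.26, against 55.4% of features lower and a median of -0.03. This comparison shares the PI libraries with the ipsilateral one, so the differences of both rest partly on the same values. With log2 total reads as a covariate the member median was -0.03 and 18 members were lower. Without PI1 it was -0.15. Without PC1 it was -0.40, and 4 members and 3.22% of features had an unadjusted p under 0.05.

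The genes with the smallest p between PI and PC were DERL2 at -0.37 ± 0.22 log2 units, PDIA6 at -0.32 ± 0.20, SSR1 at -0.37 ± 0.24, ATF6 at -0.15 ± 0.10 and MANF at -0.44 ± 0.30 (limma adjusted p = 0.999 for each). EDEM2 had the largest difference of the members, -0.47 ± 0.35. ATF6, whose groups did not overlap, thus had a small difference that limma did not call.

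Libraries of the same number deviated together in the pregnant mares, so the sides are set side by side within a number. Number 2 did so across statuses as well, so this does not show that a pair came from 1 mare. In all 5 numbers 11 members were lower in PI than PC, namely HSPA5, HYOU1, P4HB, ATF6, XBP1, HERPUD1, EDEM2, DERL2, VCP, SEC61A1 and SSR1, against 7.57% of features. ATF4 was the only member higher in PI in all 5, against 4.96% of features. It differed by at most 0.08 log2 units, while its level ranged over 0.92 log2 units between numbers. Most members varied together, so the 11 are not separate results. In the cyclic mares, whose numbers were not read as pairs, 0 members were lower in CI in all 5, against 1.01% of features.

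The size of the side difference varied with the number. HSPA5 differed by -0.04, -0.15, -0.10, -0.84 and -0.70 log2 units in numbers 1 to 5, and DERL2 by -0.40, -0.03, -0.25, -0.68 and -0.48. XBP1 was more even, at -0.21, -0.31, -0.26, -0.27 and -0.45. Numbers 4 and 5 thus held the widest gaps for HSPA5 and DERL2. PI had fewer reads than PC in numbers 1, 4 and 5 and more in numbers 2 and 3. Of the 31 members 22, 18, 24, 28 and 29 were lower in PI in numbers 1 to 5, against 54.7%, 50.3%, 52.3%, 56.2% and 52.8% of all features.

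**Figure D5:**
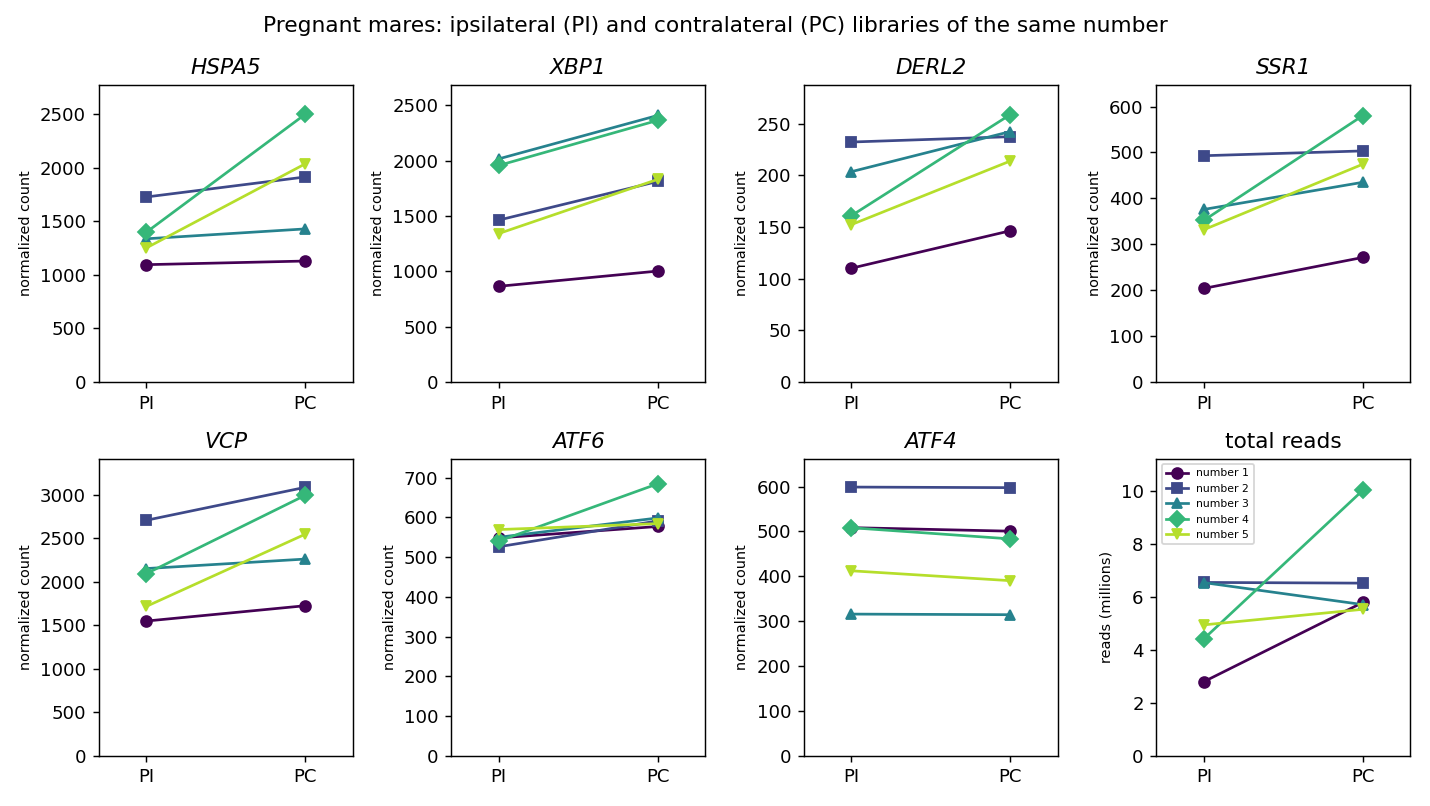
Normalized counts of 7 members, and total reads, in PI (left) and PC (right) of pregnant mares, with a line joining libraries of the same replicate number (1 to 5). The lines slope up to PC for every gene but ATF4, which is nearly level, and the steepest for HSPA5 are numbers 4 and 5. All genes shown but ATF4 are among the 11 members lower in PI in all 5 numbers. Of the members not shown, 9 were lower in 4 numbers and 10 in 3.

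In cyclic mares no member differed between CI and CC by limma, edgeR or DESeq2 at an adjusted p of 0.05, with 0% of features called by limma, and no member had an unadjusted p under 0.05, a level 0.286% of features reached by limma. Of the members 23 were lower in CI and 8 higher, with a median of -0.06, whereas 48.6% of all features were lower, with a median of 0.01. Without CC4 the member median was -0.19, without CI3 it was 0.06, and with log2 total reads as a covariate it was -0.17. In that last fit 29 members were lower in CI, and 4 members and 2.36% of features had an unadjusted p under 0.05. Without covariates ERN1 differed by -0.17 ± 0.16, HSPA5 by -0.22 ± 0.27 and SEC63 by 0.11 ± 0.12. In the same model EDEM2 differed by -0.24 ± 0.35, SSR1 by -0.24 ± 0.24, DERL1 by -0.23 ± 0.30 and SEC24D by -0.18 ± 0.19.

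Whether the pregnancy difference itself differed between sides was tested as the interaction of status and side. No member passed by limma, edgeR or DESeq2 at an adjusted p of 0.05, and none reached an unadjusted p under 0.05, which 0.320% of features reached by limma (0% at the adjusted level). Of the members 29 had a negative interaction, with a median of -0.17, as did 56.6% of all features, with a median of -0.04. SEC63 had -0.22 ± 0.17, DERL2 -0.37 ± 0.31, VCP -0.26 ± 0.30 and DNAJB11 -0.28 ± 0.33. PDIA6 had -0.22 ± 0.28, SDF2L1 -0.36 ± 0.63 and XBP1 -0.32 ± 0.43. With log2 total reads as a covariate the member median was 0.17, of the opposite sign.

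The wider pathway was read from 112 other genes of ER folding, glycosylation, degradation, translocation, exit and stress regulation, of which 97 were kept. None passed in any comparison by limma. In PI against CI 76 were lower and 21 higher (median -0.14), against 51.9% of all features lower. There 2 had an unadjusted p under 0.05 by limma, a level 3.50% of features reached. In PC against CC 54 were lower and 43 higher (median -0.02), against 48.2% of features lower. There 3 had an unadjusted p under 0.05, against 4.55% of features. In PI against PC 86 were lower and 11 higher (median -0.18), against 55.4% of features lower. In CI against CC 72 were lower and 25 higher (median -0.07), against 48.6% of features lower. In these 2 comparisons none had an unadjusted p under 0.05, against 0.762% and 0.286% of features. All 12 glycosylation and glucose-trimming genes were lower in PI than in CI (median -0.24) and than in PC (median -0.38). In PC against CC 8 of 12 were lower (median -0.01), and in CI against CC 11 of 12 (median -0.20). The 20 other stress regulators and targets were evenly divided between PI and CI, 10 lower and 10 higher. Of the 97 genes 57 had a called positive coefficient of log2 total reads, against 20.4% of all features. The median coefficient of the 97 was 0.43, against 0.08 over all features.

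TXNDC11 and CREB3L2 had an unadjusted p under 0.05 on both sides, and ATF3 on the contralateral side, none passing after adjustment by limma. TXNDC11, a thioredoxin-domain protein of the ER, averaged 236 ± 27.9 normalized counts in PI, 236 ± 14.8 in PC, 299 ± 53.4 in CI and 314 ± 43.9 in CC. It differed by -0.33 ± 0.14 between PI and CI and by -0.40 ± 0.14 between PC and CC. CREB3L2, a membrane-bound transcription factor related to ATF6 in its activation, averaged 653 ± 30.1 in PI, 681 ± 29.5 in PC, 782 ± 80.9 in CI and 807 ± 116 in CC. Its differences were -0.25 ± 0.11 and -0.23 ± 0.11. ATF3, a stress-induced transcription factor downstream of ATF4, averaged 203 ± 72.6 in PC and 123 ± 42.3 in CC, a difference of 0.72 ± 0.33.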

How the data were processed

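Members and gene lists were chosen with earlier results of these data known. The values, as the authors deposited them, are gene read counts after TMM normalization (a signal that multiplies each library's reads by 1 factor). The submitters' processing notes name CASAVA 1.8; the aligner, counter, strand setting, genome build and annotation are items not given in the sources used here, so no coordinates are printed. The labels name both a stranded total RNA kit with ribosomal RNA depletion and polyA RNA. Dividing each column by its smallest value above 0 gave back the reads, 100% of them whole within 0.01 reads. Every column was matched to 1 sample. A count of 3 reads is taken as the floor. Low genes carry more counting error, and member levels also moved with read number, as described above.

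Tests used log2 of the deposited value plus 3.03 normalized counts (0.5 CPM). One limma 3.58.1 model (R 4.3.3, trend and robust) over all 20 libraries gave 4 group means and 5 comparisons, 2-sided, with Benjamini-Hochberg adjustment over 14692 features at 0.05. edgeR 4.0.16 on the recovered read counts called 0 features, and DESeq2 1.42.0 was another alternative. The procedure was tested on simulated data. Gene names were matched to RefSeq TB-T2T by symbol (31 of 31), where 11 members overlap another gene. These are DNAJB9, MANF, PDIA6, ERN1, DDIT3, SEL1L, SYVN1, EDEM2, DERL1, DERL2 and SEC63. Whether the counting could separate them from their neighbours is not known. The labels give biological replicates, but do not say that same-numbered oviducts came from 1 mare. The same-numbered pregnant libraries deviated together (r = 0.53 to 0.70 in all 5 pairs), so their numbers were read as pairs. Of the cyclic ones, numbers 1, 2 and 5 did (r = 0.29, 0.68 and 0.62). Cyclic numbers 3 and 4 did not (r = 0.02 and -0.04), so the cyclic numbers as a set were not read as pairs. Each of these numbers held a library under 4000000 reads, CI3 and CC4, and the part of read number was not tested. Between statuses, number 2 also deviated together (r = 0.59 for PI2 and CI2, 0.49 for PC2 and CC2). The other same-numbered libraries of unlike status had r from -0.40 to 0.12. Deviating together therefore does not show that a pair came from 1 mare.

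Named members are the sensors, XBP1, ATF4, DDIT3, HSPA5 and HSP90B1, and per comparison the 5 with the smallest p and the 3 with the largest difference; other members named with values were chosen after their values were seen. Other pathway genes are named where unadjusted p was under 0.05.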

Additional observations from a re-analysis of the deposited data

Results flagged for a closer look

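Of 124 groups of 5 libraries examined (31 members in 4 groups), 2 held a library farther from the nearest other one than Dixon's 95% limit allows, where chance alone gives about 1 in 20. ATF6 had 684 normalized counts in PC4, against 577 to 598 in the other PC libraries. XBP1 had 4328 normalized counts in CC2, against 1521 to 2321 in the other CC libraries. PC4 (10015464 reads) and CC2 (9849146 reads) were the deepest libraries of their groups.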

How the results depend on the processing

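No member was called in any comparison under any of the 38 settings. Features called between PC and CC were 0 in the model reported, 1 with CPM without TMM, 12 with DESeq2, 6 with library weights and 1 with log2 total reads as a covariate. Without the 3 libraries under 4000000 reads the member medians were -0.24 (PI minus CI), -0.17 (PC minus CC), -0.15 (PI minus PC), -0.06 (CI minus CC) and -0.08 (interaction). Called read coefficients of members were 8 without the libraries under 4000000 reads. With the multiciliated level as a covariate, PC minus CC was 0.15 for SEC61A1 and 0.084 for SSR3, and the member median was 0.19. SDF2L1 in PC minus CC was -0.013 without the libraries under 4000000 reads. EDEM2 in CI minus CC was 0.045 without the libraries in which 1 feature took over 10% of reads. With log2 total reads as a covariate the interaction turned positive, with a member median of 0.17, VCP 0.13, DNAJB11 0.14, PDIA6 0.10, SDF2L1 0.17 and XBP1 0.21. The cause was not tested.

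Leaving out 1 library at a time, member medians ran from -0.34 to -0.14 for PI minus CI, -0.17 to 0.05 for PC minus CC, -0.40 to -0.15 for PI minus PC, -0.19 to 0.06 for CI minus CC and -0.30 to -0.07 for the interaction. SDF2L1 ran from -0.013 (without CC4) to 0.62 for PC minus CC, and from -0.60 to 0.035 (without CC4) for the interaction. EDEM2 ran from -0.41 to 0.045 (without CI3) for CI minus CC. Called read coefficients ran from 21 to 23.

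With the replicate block in PI against PC, fitted as a fixed effect, 0 members and 0 features were called. There 2 members had an unadjusted p under 0.05, DERL2 (-0.37 ± 0.15) and SSR1 (-0.37 ± 0.17). Of the 14692 features 464 (3.16%) reached that level. With the block fitted as a random effect 1 member and 455 features did so. Neither form of the block changed a call. In cyclic mares numbers 3 and 4 did not deviate together, so the numbers were not read as pairs there. Counting error is largest for SDF2L1 and DDIT3, at 25.7% and 14.1%.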

Other observations

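ERO1LB, an older symbol of the ER oxidase gene ERO1B and so outside the exact match, averaged 717 ± 141 normalized counts in PI, 852 ± 247 in PC, 1101 ± 493 in CI and 969.9 ± 252 in CC. In cyclic numbers 3 and 4 the 2 libraries went apart: the median member deviation was -0.50 in CI3 and 0.23 in CC3, and 0.26 in CI4 and -0.34 in CC4. The lower library of each number was also the shallower. CI3 had 3856941 reads against 6020068 in CC3, and CC4 had 3407805 against 7260706 in CI4. The part of read number in this was not tested.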
